A study of Mus musculus with 18 samples.

Results

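Loops longer than 1 Mb are the far end of the contacts that the loop list of this series records. A loop is a pair of genome positions, its anchors, that meet in the nucleus more often than their surroundings. Members were chosen by their measured span alone: every autosomal loop whose anchor midpoints lie more than 1 Mb apart was taken. The rule found 807 loops among the 20926 in the list, or 3.93% of the 20535 autosomal loops. Their span, and whatever follows from it, is therefore description and not a finding. The rule left out 8 such loops on the X chromosome. It also left out a group of 20 loops on chromosome 4, with spans of 1650 to 1920 kb, that joins places near 145.1 and 146.9 Mb.

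The series profiled G1E-ER4 cells, a mouse erythroblast line in which maturation depends on an estradiol-switched form of GATA1. The subline used carried LDB1 joined to an auxin-inducible degron, in 9 samples left untreated and in 9 samples given auxin for 4 h, so every sample carried the tagged LDB1. The method was Micro-C, which cuts chromatin between nucleosomes with micrococcal nuclease, ligates neighbouring ends and reads the pairs. The authors deposited 1 loop list and 1 domain list for the series as a whole, and neither holds a value per sample or per treatment. No effect of auxin, no spread between samples and no read depth could therefore be measured, and no test was made. Shares are given with 95% Wilson intervals, which cover the counting of loops only, and some with the SD over the 19 autosomes. Loops that share an anchor or a place are not independent, so even these intervals are too narrow.

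As background, most loops of mammalian chromosomes are thought to form while the cohesin ring extrudes chromatin until it meets CTCF, and such loops often mark the ends of topologically associating domains. A domain is a stretch whose positions meet one another more often than they meet positions outside it. LDB1 has no known DNA-binding domain of its own. It is recruited by factors such as GATA1, TAL1 and LMO2 in erythroid cells and joins distant enhancers and promoters through its self-association. Contacts over very long distances are also known between sites bound by Polycomb proteins and between active regions of the same compartment. The lists give positions only, and which of these proteins sits at a given anchor was not measured. Coordinates are those of mm9, the build in the submitters' processing notes. Gene names are not given, because the gene table at hand is of another build.

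The 807 loops spanned 1380 kb at the median (95% CI 1345 to 1410 kb). The middle part of the distribution, between its quartiles, ran from 1160 to 1640 kb, and the shortest and longest members spanned 1005 and 1995 kb. The longest loop of any chromosome in the list was also 1995 kb, and the largest domain was 2000 kb, so the list ends near 2000 kb for both. Every anchor was 10000 bp wide. Anchor coordinates fell on grids of 10, 5 or 2 kb. The 10 kb grid held 460 members with a median span of 1360 kb, and the 5 kb grid held the other 347 with a median of 1395 kb. None lay on the 2 kb grid, which held 21.6% of the autosomal loops up to 1 Mb. Loops of 500 kb to 1 Mb, the 1989 autosomal loops used for comparison, had a similar makeup: 55.8% used 10 kb steps and 44.2% used 5 kb steps.

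Numbers of loops were alike on both sides of the threshold. There were 17 loops at 990 kb, 2 at 995 kb, 7 at 1000 kb, 1 at 1005 kb and 17 at 1010 kb. Just over it were a loop of 1005 kb on chromosome 8, from 74277501 to 75292500, and loops of 1010 kb on chromosome 1, from 175220001 to 176240000 and from 175380001 to 176400000. Just under it were loops of 1000 kb on chromosome 2, from 112640001 to 113650000 and from 171560001 to 172570000, and on chromosome 6, from 18160001 to 19170000. Of these 6 loops, 3 were held by a domain, of which 1 lay under the threshold and 2 over it.

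The longest members reached from 1985 to 1995 kb. Spans of 1995 kb were found on chromosome 4, from 32057501 to 34062500 and from 145177501 to 147182500, and on chromosome 11, from 111507501 to 113512500. A span of 1990 kb was found on chromosomes 2, 8, 12, 13 and 17, with 2 such loops on chromosome 8. The tenth, of 1985 kb, lay on chromosome 4 from 145177501 to 147172500. None of these 10 loops was held by a domain. From 0 to 19 domain boundaries lay between their anchors. The loops of 1995 and 1985 kb that begin at 145177501 on chromosome 4 had 1 and 0, in a stretch where the domain list is almost empty.

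Most loops over 1 Mb ran across domains. Both anchor midpoints lay inside a single domain for 155 of 807 loops, a share of 19.2% (95% Wilson interval 16.6 to 22.1%), and 652 loops (80.8%) were held by no domain. Over the autosomes the share held averaged 20.2% ± 11.2 (SD, n = 19 autosomes). It was lowest on chromosome 4, at 1.69% of 59 loops, and highest on chromosome 16, at 44.4% of 18 loops. Among loops of 500 kb to 1 Mb, 1128 of 1989 were held by a domain, or 56.7% (54.5 to 58.9%), and the share was higher than that of the longer loops on 19 of 19 autosomes. A longer loop needs a larger domain, so this order follows in part from the rule. Of the 12571 autosomal domains, 1652 were over 1 Mb, and these covered 62.3% of the autosomal span of the lists.

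The share held was lower in longer classes, with no step at 1 Mb. It was 35.6% (28.9 to 42.8%) of the 180 loops of 900 to 1000 kb and 35.4% (28.1 to 43.5%) of the 144 loops of 1000 to 1100 kb. It was 16.1% (9.004 to 27.2%) of the 62 loops of 1500 to 1600 kb, and 0 of 46 loops of 1900 to 2000 kb, where the interval reached 7.71%. The share of anchors within 20 kb of a boundary did not fall steadily with span. It was 34.2% (29.5 to 39.2%) at 900 to 1000 kb and 38.9% (33.4 to 44.6%) at 1000 to 1100 kb. Further up it was 30.6% at 1400 to 1500 kb and 35.7% at 1600 to 1700 kb. The longer classes had 31.7% (23.6 to 41.2%) at 1700 to 1800 kb and 23.9% (16.4 to 33.6%) at 1900 to 2000 kb.

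**Figure D1:**
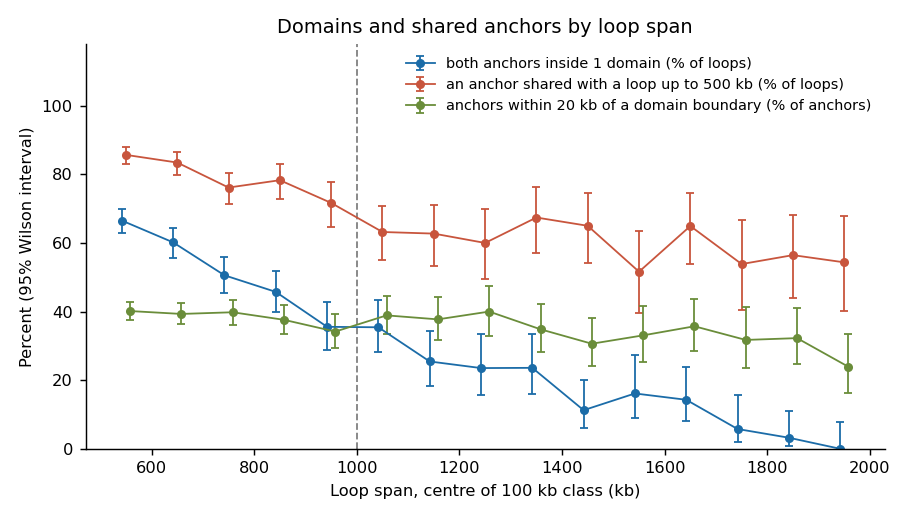
Percent of loops held by 1 domain, percent of loops that share an anchor with a loop up to 500 kb, and percent of anchors within 20 kb of a domain boundary, in classes of 100 kb of span. Bars are 95% Wilson intervals, the dashed line is the 1 Mb threshold, and the share held falls from 66.5% at 500 to 600 kb to 0 at 1900 to 2000 kb while the share of anchors at boundaries runs between 23.9 and 40.2%.

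Where a domain held a loop over 1 Mb, the loop filled most of it. The 155 held loops lay in 117 distinct smallest domains of 1050 to 2000 kb, with a median of 1492.5 kb. Their span was a median of 88.4% of the domain (quartiles 74.8 and 94.3%), since no domain exceeded 2000 kb. A single domain held 134 of them, and 2 or more domains held 21. The longest held loop spanned 1815 kb on chromosome 11, from 23942501 to 25767500, in a domain of 1870 kb. On chromosome 13 a loop of 1810 kb, from 4660001 to 6480000, lay in a domain of 1855 kb. The next were 1790 kb on chromosome 8, 1770 kb on chromosome 6 and 1755 kb on chromosome 15, in domains of 2000, 1920 and 1825 kb. Most of these domains were themselves divided: only 4 of the 807 loops, or 0.496%, lay inside a domain that holds no other domain.

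The loops that no domain held joined neighbouring as well as separate domains. Domains are nested, so anchors were first placed in outermost domains, which lie inside no other. For 194 of the 652 loops (29.8%) the outermost domains of the 2 anchors overlapped each other. For 151 (23.2%) they adjoined within 20 kb. For 224 (34.4%) at least 1 whole outermost domain lay between them, for 58 (8.90%) a gap over 20 kb without such a domain did, and for 25 an anchor lay in no domain. A crossing loop, meaning one held by no domain, touched a median of 4 outermost domains and at most 11. Among the 652, 9 loops touched 0 outermost domains and 10 touched only 1. Among all 807 loops, 25 (3.10%, 2.11 to 4.53%) had an anchor outside every domain, compared with 15 of 1989 loops of 500 kb to 1 Mb (0.754%, 0.458 to 1.24%). A cluster of 9 loops on chromosome 4, described further on, lies where the domain list is almost empty, and without it the count was 16 of 798 loops, or 2.01% (1.24 to 3.23%). The list of domains covers 97.9% of the autosomal span.

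A boundary here is any distinct start or end of a domain, and a median of 8 of them (95% CI 8 to 9, quartiles 6 and 11) lay between the anchors of a loop over 1 Mb. Per Mb of span the median was 5.90 boundaries, against 5.38 for loops of 500 kb to 1 Mb. At least 1 whole domain lay between the anchors of 760 loops (94.2%), with a median of 4 such domains. The most boundaries, 21, lay inside a loop of 1855 kb on chromosome 14, from 55182501 to 57047500, and a loop of 1830 kb on chromosome 4, from 131630001 to 133470000. Another 3 loops had 20, of which 2 lay on chromosome 6 between 129477501 and 131342500 and 1 on chromosome 4 from 129287501 to 130937500. At the other end, 12 loops (1.49%) had no boundary between their anchors. The 5 longest of these were 4 loops of chromosome 4 in the stretch almost without domains and a loop of 1470 kb on chromosome 5, from 141320001 to 142800000. The last lay in a domain of 1492.5 kb with 0 boundaries between its anchors. Without the 9 loops of that chromosome 4 stretch, 4 of 798 loops (0.501%) had no boundary between their anchors.

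Anchors of loops over 1 Mb lay at domain ends more often than anchors of the whole list of shorter loops and less often than anchors of loops of 500 kb to 1 Mb. Of 1614 anchors, 565 had a midpoint within 20 kb of a boundary, or 35.0% (32.7 to 37.4%). The share was 27.8% (27.3 to 28.2%) for autosomal loops up to 1 Mb and 39.0% (37.5 to 40.5%) for loops of 500 kb to 1 Mb, and it was below the latter on 12 of 19 autosomes. By autosome it averaged 35.5% ± 6.34 (SD, n = 19), with the lowest value, 19.5%, on chromosome 4 and the highest on chromosome 16. Within 60 kb it was 64.9% for loops over 1 Mb, 70.9% for loops of 500 kb to 1 Mb and 58.7% for loops up to 1 Mb, the same order as at 10, 20 and 40 kb. These differences were not tested.

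Within 20 kb, the difference from the whole list of shorter loops lay mostly in the left anchors. Left anchors of loops over 1 Mb were within 20 kb of a boundary in 33.3% (30.2 to 36.7%), against 20.8% (20.3 to 21.4%) for loops up to 1 Mb. Right anchors were so in 36.7% (33.4 to 40.1%), against 34.7% (34.0 to 35.3%). The sides were closer to each other at a wider distance. Within 60 kb, left anchors were at 63.6% against 55.9% for loops up to 1 Mb, and right anchors at 66.3% against 61.5%. Compared with loops of 500 kb to 1 Mb, the side that differed depended on the distance allowed. Within 20 kb, left anchors were alike, at 33.3% and 33.1%, and right anchors were at 36.7% against 44.9% (42.8 to 47.1%). Within 10 kb, left anchors were at 22.7% against 19.9% and right anchors at 25.3% against 30.2%. Within 40 kb both sides were lower in the longer loops, with left anchors at 51.4% against 58.3% and right anchors at 55.5% against 62.5%, and within 60 kb the left values were 63.6% and 69.6% and the right values 66.3% and 72.2%. The median distance to the nearest boundary was 40 kb for left and 35 kb for right anchors of loops over 1 Mb.

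In loops of 500 kb to 1 Mb, left and right anchors leaned to opposite sides of a boundary, and in loops over 1 Mb this lean was smaller. Pairs of an anchor and a boundary were counted in steps of 10 kb, a positive distance meaning that the anchor has the higher coordinate. The left side of loops over 1 Mb was most frequent at 10 kb, with 161 pairs in 807 loops. For loops of 500 kb to 1 Mb the peak was at 30 kb, with 525 pairs, or 26.4 per 100 loops. At 30 kb on the lower side of the boundary, left anchors had 59 pairs in loops over 1 Mb, against 141 at 30 kb on the higher side. The values for loops of 500 kb to 1 Mb were 89 and 525 pairs. Right anchors of loops over 1 Mb were most frequent at 0 and 10 kb, with 141 pairs at each. They had 96 pairs at -30 kb, or 11.9 per 100 loops, and 12.5 per 100 loops at 30 kb. In loops of 500 kb to 1 Mb these values were 17.7 and 9.40 per 100 loops. The asymmetry was not tested.

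**Figure D2:**
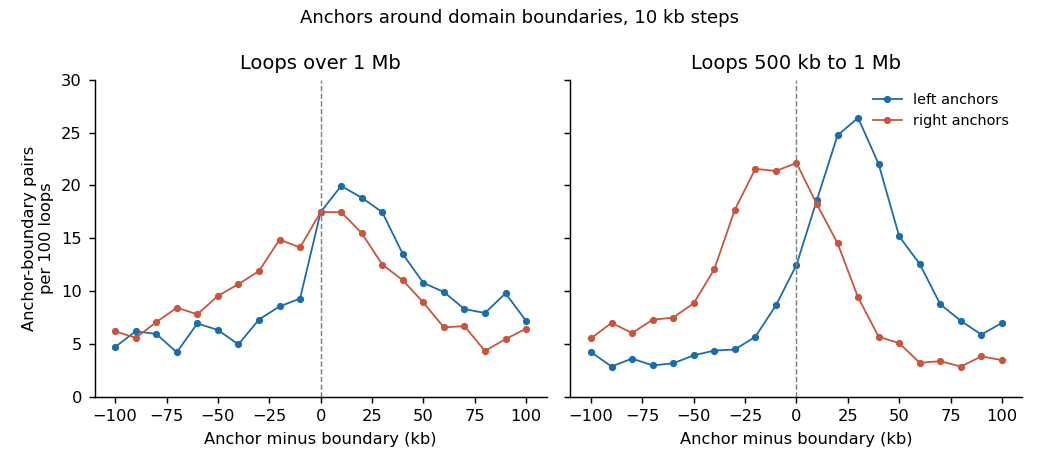
Pairs of an anchor and a domain boundary per 100 loops against their signed distance in kb, for left and right anchors of loops over 1 Mb and of loops of 500 kb to 1 Mb. In the longer loops the peaks lie at 10 kb for left anchors and equally at 0 and 10 kb for right anchors. In the shorter ones they lie at 30 kb for left and 0 kb for right anchors.

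Loops from the start of a domain to the end of a domain were taken as those with the left anchor within 20 kb of a start and the right anchor within 20 kb of an end. There were 104 of them among the loops over 1 Mb, or 12.9% (10.8 to 15.4%), close to the 13.3% (11.9 to 14.8%) of loops of 500 kb to 1 Mb. The 2 classes were further apart at wider distances, at 30.9% and 34.7% within 40 kb and 42.8% and 49.1% within 60 kb. The reverse arrangement, from an end to a start, held for 94 loops (11.6%), and 82 loops met both descriptions, because many boundaries are the end of a domain and the start of the next. The start and the end of the same domain, the position called its corner, were joined by 34 loops, or 4.21% (3.03 to 5.83%). The corner share was 3.71% of autosomal loops up to 1 Mb and 5.58% (4.65 to 6.68%) of loops of 500 kb to 1 Mb. The other 70 of the 104 loops joined the start of a domain to the end of a different one, with a median of 4.5 whole domains between the anchors, and 17 of these were held by a larger domain. Corner shares depended on the distance allowed, and so did their order. Within 10 kb they were 1.36% for loops over 1 Mb, 1.61% for loops of 500 kb to 1 Mb and 1.09% for loops up to 1 Mb. Within 40 kb the loops over 1 Mb were lowest, at 11.4% against 16.4% and 12.7%. Within 60 kb they were again lowest, at 15.2% against 24.5% and 22.0%.

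The 34 corner loops belonged to 32 domains of 1017 to 1940 kb, which are 1.94% of the autosomal domains over 1 Mb. Of these 32 domains, 27 lay inside no other domain and 7 held none. The longest pair lay on chromosome 11, with spans of 1950 and 1940 kb, both from 55330001 and ending at 57290000 and 57280000. They shared the corner of 1 domain of 1925 kb, whose start lay 10 kb above their left midpoint. Corner loops of 1935 kb on chromosome 8, from 110122501 to 112067500, and of 1870 and 1810 kb on chromosome 10, from 68810001 to 70690000 and from 100090001 to 101910000, came next. These 3 had no shorter loop at either anchor. An anchor just outside its domain kept 21 of the 34 from counting as held.

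Loops over 1 Mb shared anchors with shorter loops less often than shorter loops did among themselves. An anchor was shared when it overlapped an anchor of a loop up to 1 Mb by at least 1 bp. This was so for 533 of 807 loops, or 66.0% (62.7 to 69.2%), with a mean of 65.1% ± 11.2 over autosomes (SD, n = 19), from 42.3% on chromosome 9 to 88.9% on chromosome 19. For autosomal loops up to 1 Mb the share was 91.4% (91.0 to 91.8%). Both anchors were shared in 220 loops (27.3%, 24.3 to 30.4%), only the left in 151 and only the right in 162. The share was alike for loops held by a domain (67.1%, 59.4 to 74.0%) and for the others (65.8%, 62.1 to 69.3%). It was 71.0%, for 319 of 449 loops, where an anchor lay at a boundary and 59.8%, for 214 of 358, where neither did.

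Anchors with a shorter loop also lay at boundaries more often than anchors without, 38.8% (35.4 to 42.3%) of 753 against 31.7% (28.7 to 34.9%) of 861. The values were 37.7% against 26.8% for loops in 5 kb steps and 39.4% against 36.1% for loops in 10 kb steps. The nearest midpoint of a shorter loop's anchor was a median of 10 kb away, within 20 kb for 1001 of the 1614 anchors (62.0%) and more than 100 kb away for 256 (15.9%). The most remote anchor was 4467.5 kb from any. A median of 6 shorter loops (quartiles 1 and 13, at most 63) lay between the anchors of a loop over 1 Mb, and 18.0% of the loops had none.

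The shortfall in sharing lay mostly on the inward side. A shorter loop that starts at the same anchor can run inward, toward the other anchor, or outward. Partners were limited to autosomal loops up to 500 kb, for both classes. The median span was 1380 kb for loops over 1 Mb and 655 kb for loops of 500 kb to 1 Mb. An inward partner within this limit can therefore cover more of a loop of the shorter class. How much of the inward difference follows from span was not tested. Inward partners were found at the left anchor of 24.8% (21.9 to 27.9%) of loops over 1 Mb and of 52.7% (50.5 to 54.9%) of loops of 500 kb to 1 Mb. At the right anchor the shares were 26.6% (23.7 to 29.8%) and 52.9% (50.7 to 55.1%). Outward partners were nearly as frequent in both classes: 19.6% (17.0 to 22.5%) and 22.6% (20.8 to 24.5%) at the left anchor, 22.8% (20.04 to 25.8%) and 22.4% (20.6 to 24.3%) at the right. Counting either side and direction, 61.1% (57.7 to 64.4%) of loops over 1 Mb had such a partner, against 81.2% (79.5 to 82.9%), and the share was lower on 19 of 19 autosomes. By span, this share was 85.7% at 500 to 600 kb, 71.7% at 900 to 1000 kb and 63.2% at 1000 to 1100 kb. With identical anchor coordinates the inward shares, at either anchor, were 19.5% and 41.9% and the outward shares 12.4% and 11.97%. With anchors up to 10 kb apart they were 58.4% and 80.7% inward and 55.0% and 61.7% outward.

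**Figure D3:**
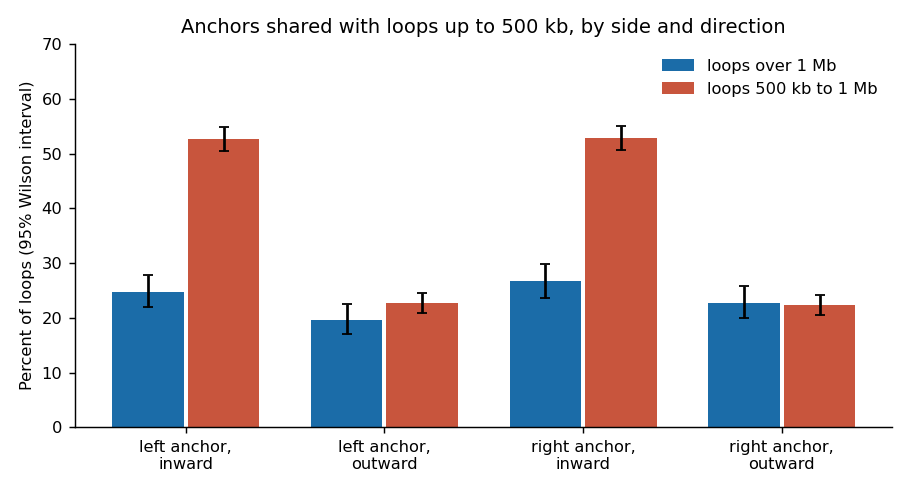
Percent of loops over 1 Mb and of loops of 500 kb to 1 Mb with an autosomal loop up to 500 kb at the same anchor, by side and by direction, with 95% Wilson intervals. Inward partners are at 24.8 and 26.6% in the longer loops and 52.7 and 52.9% in the shorter ones, while outward partners lie between 19.6 and 22.8% in both.

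Against all loops up to 1 Mb, the 807 loops had 1299 distinct partners, 6.59% of those loops, with a median span of 220 kb. Inward partners numbered 834, with a median span of 245 kb, and outward partners 579, with a median of 190 kb. The longest inward partner at an anchor reached a median of 24.8% of the span of the loop over 1 Mb (quartiles 10.3 and 51.3%, 518 anchors). A shared anchor had a median of 2 shorter loops, 230 anchors had 3 or more and 69 had 5 or more. The richest was the right anchor of a loop of 1900 kb on chromosome 12, at 111930001 to 111940000, with 12 shorter loops, 6 in each direction and 28 to 840 kb long. The left anchor of a loop of 1810 kb on chromosome 6, at 115960001 to 115970000, had 9, of which 6 ran inward. On chromosome 15 the anchor at 100290001 to 100300000 had 9, of which 6 ran outward.

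Among the next anchors, the sharing was in 1 direction only. On chromosome 10 the right anchor at 17437501 to 17447500 of a loop of 1120 kb had 9 shorter loops of 115 to 640 kb, all inward, and lay 0.834 kb from a boundary. On chromosome 15 the left anchor at 61812501 to 61822500 of a loop of 1755 kb had 8 shorter loops of 115 to 825 kb, all inward, and lay 27.5 kb from a boundary. The richest anchor, on chromosome 12, lay 153 kb from the nearest boundary.

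Few loops over 1 Mb closed a path of shorter loops. Anchors that overlapped were merged into regions, and the fewest shorter loops that lead from one anchor region to the other were counted. The number depended strongly on what counts as the same anchor. Such a path existed for 59 loops, or 7.31% (5.71 to 9.32%). The share was 1.12% when anchors had to be identical and 12.6% when they could lie 10 kb apart, and it was 2.88% and 1.52% with loops in 5 kb and in 10 kb steps alone. For another 161 loops both anchors had shorter loops but no path. A path of 2 loops through 1 middle region was found for 39 loops, of 3 for 10, of 4 for 6, and of 5 or 6 for 2 each. In all 39 cases the middle region lay between the anchors, as it must when each step is at most 1 Mb and the loop is longer. These 39 loops were short for the class, with a median span of 1105 kb and a longest span of 1755 kb. Their shorter step had a median of 330 kb and their longer step 800 kb. Since both steps must be at most 1 Mb, the number falls with span by construction, and of loops over 1.5 Mb 2.01% were joined.

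The longest loop with a path of 2 was that of 1755 kb on chromosome 15 with the inward anchor described above. Steps of 825 and 930 kb met at 62632501 to 62650000, and a domain of 1825 kb held the whole. The other 4 of the longest 5 were held by no domain. A loop of 1600 kb on chromosome 9, from 42270001 to 43880000, was matched by steps of 640 and 970 kb that met at 42907501 to 42920000. On chromosome 15 a loop of 1400 kb, from 34670001 to 36080000, had steps of 610 and 790 kb. On chromosome 10 a loop of 1360 kb, from 121057501 to 122427500, had steps of 460 and 890 kb. On chromosome 2 a loop of 1310 kb, from 172170001 to 173490000, had steps of 670 and 640 kb that met at 172840001 to 172850000. Joined loops were found on 18 of 19 autosomes and were most frequent on chromosome 15, at 25.6% of its 43 loops.

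Loops over 1 Mb also shared anchors with one another. This was so for 313 loops, or 38.8% (35.5 to 42.2%), and 233 of these also shared an anchor with a shorter loop. No anchor in common with any loop of the list was found for 194 loops (24.0%, 21.2 to 27.1%). Most sharing was of the same side: 269 loops had a left anchor in common with the left, or a right with the right, of a loop that ended elsewhere. Chains, in which the right anchor of one loop is the left anchor of the next, involved 48 loops (5.95%), and 14 loops overlapped another at both anchors. Their 1614 anchors merged into 1409 regions, of which 1244 (88.3%) had a single loop over 1 Mb, 133 had 2 and 32 had 3 or more. Of the 165 regions with 2 or more, 143 sent all of them in the same direction.

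The region with the most loops over 1 Mb lay on chromosome 5 at 27822501 to 27837500. It received 5 loops of 1240 to 1465 kb from 5 partner regions at lower coordinates and had 0 shorter loops. On the same chromosome, 116470001 to 116487500 sent 4 loops of 1065 to 1360 kb to higher coordinates, also with 0 shorter loops, and 114177501 to 114192500 received 4 of 1320 to 1540 kb, with 1 shorter loop. On chromosome 2, 170327501 to 170342500 had 4 loops of 1555 to 1830 kb, 3 of them to lower coordinates, and 7 shorter loops. Also on chromosome 2, 168777501 to 168790000 sent 4 loops of 1150 to 1555 kb to higher coordinates. On chromosome 4, 153320001 to 153340000 received 4 loops of 1610 to 1800 kb, and on chromosome 11, 57270001 to 57290000 received 4 of 1340 to 1950 kb. The remaining 3 of the top 10 had 3 loops each, at 55327501 to 55340000 on chromosome 11 and at 172162501 to 172180000 and 174117501 to 174130000 on chromosome 2. These regions thus ran from 0 to 7 shorter loops.

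The density of loops over 1 Mb differed among autosomes. It averaged 0.330 per Mb ± 0.0927 (SD, n = 19 autosomes), from 0.160 per Mb on chromosome 3 to 0.474 per Mb on chromosome 12. Chromosome 13 was next, at 0.469 per Mb, and had the highest share, 6.21% of its loops (4.80 to 7.99%). Chromosome 9 had the lowest share, 2.24% (1.53 to 3.26%). Chromosome 11, the densest in shorter loops at 12.9 per Mb, had 0.345 per Mb, and chromosome 14, the sparsest at 5.84 per Mb, had 0.252 per Mb. As a description over 19 autosomes, the density of loops over 1 Mb and that of shorter loops had a Pearson r of 0.108 and a Spearman rho of 0.244. For the share of loops over 1 Mb against the density of shorter loops, the values were -0.450 and -0.295. The points share the same list and its unknown depth.

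**Figure D4:**
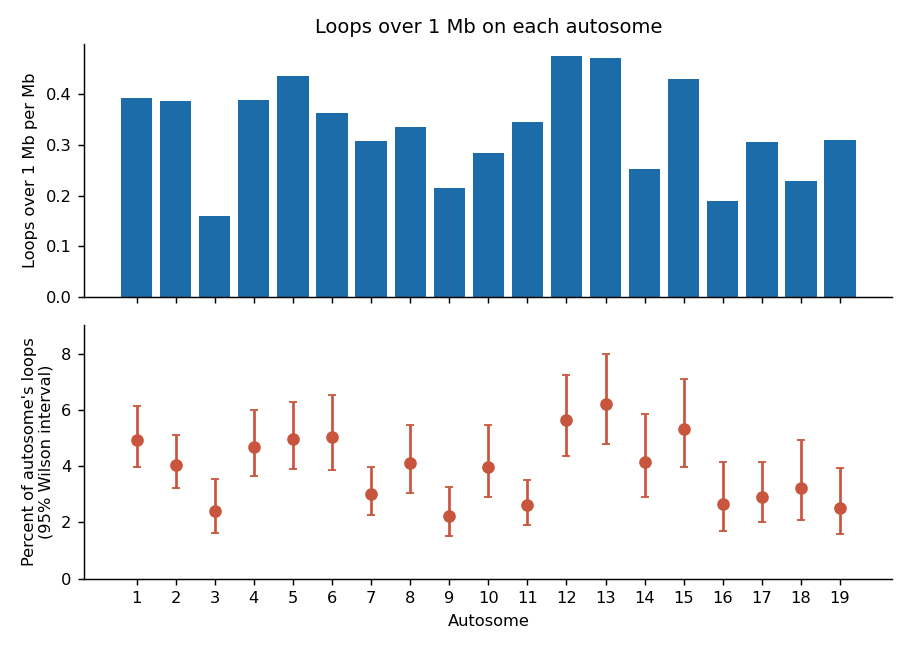
Loops over 1 Mb per Mb of each autosome (bars) and as a percent of that autosome's loops with 95% Wilson intervals (points). Chromosomes 12 and 13 stand highest per Mb at 0.474 and 0.469, and chromosome 3 lowest at 0.160.

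Within chromosomes the loops were unevenly spread. In 464 windows of 5 Mb, with loops assigned by midpoint and the part-filled windows at both ends of each chromosome left out, 781 of the 807 loops were counted, and the median was 1 loop over 1 Mb, 155 windows (33.4%) had none, and 33 windows with 5 or more held 231 loops. The highest count was 12, on chromosome 2 in both 165000001 to 170000000 and 170000001 to 175000000. Windows with more shorter loops held more loops over 1 Mb. The mean was 0.981 per window with 0 to 20 shorter loops, 1.78 per window with 21 to 50 and 2.29 per window with 51 to 151. As a share of all loops in these windows, loops over 1 Mb went the other way, at 8.74%, 5.01% and 2.86%. The count of shorter loops that sorted the windows also enters this share. Over the 464 windows the Pearson r of the 2 counts was 0.279 and the Spearman rho 0.305, as a description of windows from the same list.

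Neighbouring loops over 1 Mb were often close. The median distance between midpoints of neighbours was 1277.5 kb, the lower quartile was 90 kb, and 208 of 788 distances (26.4%) were at most 100 kb. For 205 loops (25.4%, 22.5 to 28.5%) another loop over 1 Mb lay within 100 kb at both anchors. Chaining midpoints at most 500 kb apart gave 498 places, of which 339 had a single loop. Clusters of 3 or more numbered 71 and held 292 loops, or 36.2% of the members, and 19 clusters of 5 or more held 124. The same values are not given for shorter loops, so whether loops over 1 Mb cluster more than those was not tested. Chromosome 9 was the only autosome of 19 without a cluster of 3.

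The largest cluster had 11 loops of 1150 to 1990 kb on chromosome 2, from 168030001 to 170517500. No domain held any of them, and from 4 to 10 boundaries lay inside each. They used 13 anchor regions, 12 of their 22 anchors lay within 20 kb of a boundary, 10 loops shared an anchor with a shorter loop, and none closed a path of shorter loops. Of these, 3 loops of 1850 to 1990 kb began between 168030001 and 168082500, and 8 began between 168722501 and 168790000. The second cluster, with 10 loops of up to 1950 kb, lay further along chromosome 2, from 172170001 to 174762500. It differed in that 51 shorter loops lay inside it, against 17 in the first, and 6 of its loops closed a path of shorter loops.

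On chromosome 4 a cluster of 9 loops of 1115 to 1995 kb lay from 145047501 to 147182500. It adjoins the group of 20 loops that the rule leaves out, and 7 of its loops have an anchor in a stretch that group uses. At most 1 boundary lay inside any of them, because the domain list has almost no entry there. Without these 9 loops, the share held by a domain was 19.4%, the share that shares an anchor with a shorter loop 65.7% and the share in clusters of 3 or more 35.5%. The next largest cluster of chromosome 4, from 151527501 to 154102500, had 8 loops of 1610 to 1955 kb, and 7 of them ran from 4 anchors between 151527501 and 151720000 to anchors between 153320001 and 153540000.

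**Figure D5:**
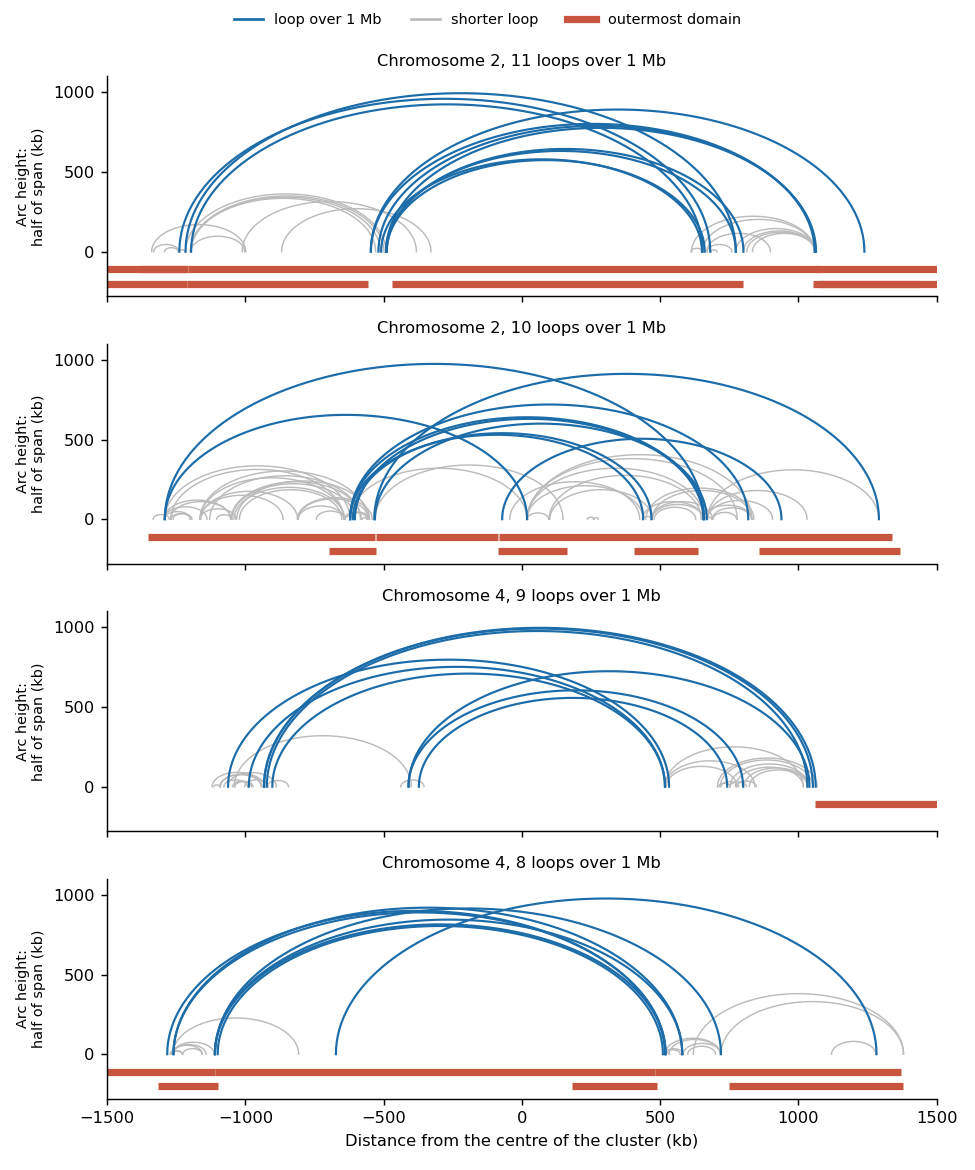
The 4 clusters with the most loops over 1 Mb, with distance from the cluster's centre in kb across and arcs that join the anchor midpoints, taller for longer spans. Blue arcs are loops over 1 Mb, grey arcs shorter loops in the same stretch, and red bars the outermost domains, staggered where they overlap: the 9-loop cluster of chromosome 4 has almost no domain beneath it, and the 10-loop cluster of chromosome 2 has the most shorter loops.

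The cluster of 8 loops on chromosome 13, from 22010001 to 23870000, differed from the larger ones in its domains. Their spans were 1175 to 1720 kb, their midpoints lay within 255 kb, and 7 of the 8 were held by a domain, in contrast to 0 in the 4 larger or equal clusters already named. All 8 shared an anchor with a shorter loop and none closed a path. Of the clusters with 7 loops, the one on chromosome 11, from 55327501 to 57290000, used only 6 anchor regions and had 2 shorter loops inside it. It holds the longest corner loops. The one on chromosome 5, from 116047501 to 117952500, had 3 loops that shared an anchor with a shorter loop. On chromosome 6, from 56870001 to 58590000, the 7 loops of 1035 to 1710 kb shared no anchor with one another and used 14 anchor regions.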

How the data were processed

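The authors deposited 2 lists of genome coordinates in bp, without headers, scores or values per sample: loops as pairs of anchors, and domains that their name calls filtered and merged. The build is mm9, per the submitters' processing notes. The aligner, callers, resolutions and samples behind each list are not given in the sources used here. Read depth is unknown, and 0 columns of per-sample values were left without a sample. Starts were read as counted from 0 and are printed counted from 1. Loops with both anchors starting at multiples of 10 kb form the 10 kb grid, those with an anchor 2500 or 7500 bp past one the 5 kb grid, and the rest the 2 kb grid. Calculations used Python 3.11.15, numpy 2.4.6, pandas 2.3.3, scipy 1.17.1, statsmodels 0.14.6 and matplotlib 3.10.9. Simulated lists with known answers checked the counts of loops held, at a corner, crossing, sharing an anchor and joined through 2 shorter loops. Signed distances to boundaries, directions of partners and window counts were not checked in this way. No statistical test was made. The members, distances and named regions were chosen with earlier results of these data known. Regions were named by rank (longest, most boundaries, most loops), ties going to the longer span and then to genome order. Genes and sequences are not used here, because the tables at hand are of another build.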

Additional observations from a re-analysis of the deposited data

How the results depend on the processing

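The 14 results were recomputed under 91 alternatives, of which 14, leaving out the 9-loop cluster of chromosome 4, were chosen after the data were examined. Of these 14, 12 stayed within the interval, while loops with an anchor outside every domain were 2.01% and loops without a boundary between the anchors 0.501%. In all, 39 stayed within the 95% interval of the main value (counts within 1.5 times) and 52 moved. Counts of loops over 1 Mb were 347 in 5 kb steps alone, 460 in 10 kb steps alone and 299 over 1.5 Mb. Loops inside 1 domain were 0.496% with only domains that hold no other and 8.70% over 1.5 Mb. The median number of boundaries was 11 over 1.5 Mb and 5 with boundaries within 20 kb of each other counted as 1. Anchors at a boundary were 24.0%, 53.5% and 64.9% at 10, 40 and 60 kb, 32.0% and 27.9% with domains that hold no other and domains inside no other, 31.9% over 1.5 Mb, and 31.3% and 37.8% in 5 and 10 kb steps. Loops from a domain start to an end were 5.33%, 30.9% and 42.8% at 10, 40 and 60 kb, 9.54% and 6.69% with those domains, and 10.1% in 5 kb steps. Corner loops were 1.36%, 11.4% and 15.2% at 10, 40 and 60 kb and 0.867% with domains that hold no other. Next come shares with identical anchors, with anchors within 10 kb, over 1.5 Mb, and in 5 kb and 10 kb steps, in this order. An anchor was shared with a shorter loop in 37.8%, 81.3%, 62.2%, 44.1% and 42.4%. Both were shared in 7.06%, 42.8%, 24.1%, 10.7% and 6.30%. Anchors were joined through shorter loops in 1.12%, 12.6%, 2.01%, 2.88% and 1.52%. Sharing with another loop over 1 Mb was 24.7%, 48.5%, 24.4%, 22.8% and 28.3%. Loops in clusters of 3 or more were 31.0% and 41.3% with linking distances of 250 kb and 1 Mb, 23.4% over 1.5 Mb, and 16.4% and 24.3% in 5 and 10 kb steps. A single grid drops the loops of the others, so fewer partners remain. For sharing with another long loop and for clusters, the values over 1.5 Mb counted only loops over 1.5 Mb, so fewer remained there too. No paired analysis was possible because neither list gives per-sample values, and the same reason kept the 2 planned auxin alternatives from being run. With unknown depth, a contact missing from the list is not shown to be absent.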

Other observations

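The X chromosome held 8 loops over 1 Mb, 2.05% of its 391 loops, with spans of 1070 to 1975 kb and a median of 1430 kb. This is 0.0490 per Mb, compared with 0.160 to 0.474 per Mb on the autosomes, and 0 of the 8 were held by a domain.

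Along the autosomes, each divided into 10 equal parts of its covered length from the lowest coordinate, loops over 1 Mb were most numerous at the far end. The last part held 139 and the ninth 114, against 53 in the fifth and 73 in the first. Shorter loops also rose toward that end, from 1389 in the first part to 2638 in the last, so that loops over 1 Mb were 4.99% of loops in the first part, 2.95% in the fifth and 5.01% in the last. Mouse chromosomes have their centromere near the lowest coordinate.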
